A study of Mus musculus with 6 samples.

Results

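Expression of 10 genes of glucose uptake and glycolysis was compared by RNA-seq between inguinal white fat (IngWAT) of floxed control mice and of H3atKO mice, whose *Hdac3* is deleted in adipose tissues. The genes were chosen by symbol, with earlier results of these data known, and are 10 of the 46517 genes in the count files and of the 14967 genes that were tested. They encode the glucose transporters *Slc2a1* (GLUT1) and *Slc2a4* (GLUT4), the hexokinases *Hk1* and *Hk2*, the phosphofructokinases *Pfkl*, *Pfkm* and *Pfkp*, the pyruvate kinase *Pkm*, and the lactate dehydrogenases *Ldha* and *Ldhb*. All 10 passed the filter on low counts, with 43 to 20277 reads per sample.

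Glucose enters fat cells through carriers in the cell membrane, and GLUT4 is the carrier that insulin moves there from stores inside the cell. Hexokinase traps glucose as its phosphate, phosphofructokinase commits it to glycolysis, pyruvate kinase makes pyruvate, and lactate dehydrogenase interconverts pyruvate and lactate. Each of these steps has several forms, encoded by separate genes, that differ in regulation and in the tissues that use them. In white fat the pathway feeds triglyceride and fatty acid synthesis, and in brown fat it also fuels heat production.

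There were 3 floxed and 3 H3atKO samples, each made from 500 ng of RNA pooled across 2 or 3 mice of 1 genotype, aged 5 to 9 months, of the C57Bl6 strain and fed chow. Floxed mice carried the *Hdac3* floxed allele without Cre. H3atKO mice carried it with an Adipoq-cre transgene, made in a B6:FVB background, whose adiponectin promoter drives Cre in adipocytes, so that vessels, immune cells and nerves of the same tissue keep *Hdac3*. *Hdac3* itself was at 68.8, 80.2 and 65.8 cpm (a read count scaled to the size of its library after TMM normalization) in the 3 floxed samples and at 27.4, 21.05 and 12.9 cpm in the 3 H3atKO samples, in order of replicate number, so every H3atKO sample was below every floxed sample. Limma voom gave it a log2 fold change of -1.83 (SE 0.32, adjusted p = 0.0213).

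Values of samples are given throughout in the order of replicates 1 to 3. Reads on genes numbered 23865507 to 35200685 per sample. The libraries differed by genotype in ways that reach these 10 genes. Mitochondrial genome transcripts took 6.92% to 12.9% of the reads in floxed and 26.9% to 35.3% in H3atKO samples. The Spearman correlation of a gene's GC content with its deviation from its own mean over the samples was 0.80, 0.62 and 0.097 in the 3 floxed and -0.43, -0.50 and -0.71 in the 3 H3atKO samples, so that GC content ordered the genotypes completely and the part of a change that follows GC content cannot be told apart from genotype. The transcripts of the 10 genes have a GC content of 48.0% to 57.7%. Alignments at more than 1 place, which were given to no gene, were 28.3% to 35.2% of those tallied in floxed and 43.8% to 45.5% in H3atKO samples, without overlap. The fold changes of the 10 genes are therefore given also after a GC correction, in which each sample's trend with GC content was subtracted, and, where it changes a call, with the replicate number as a block, which compares samples that share a number. In whole tissue, fewer cells of a type and less RNA per cell cannot be told apart.

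The adipocyte identity of the tissue was read from 9 marker genes, all of which were measured. *Adipoq*, which encodes adiponectin, averaged 2344 cpm in floxed and 2077 cpm in H3atKO samples. The summed level of the 9 markers ran from 14826 to 38685 cpm in floxed and from 15915 to 27256 cpm in H3atKO samples, so the groups overlapped. Most of that sum was *Fabp4*, the fatty acid binding protein of fat cells, which averaged 15894 and 16320 cpm, and without it the range was 4497 to 19476 cpm in floxed and 2901 to 5217 cpm in H3atKO samples. Of the 9 markers, 8 had a negative fold change, with a median log2 fold change of -1.57, and of -0.77 after the GC correction. Limma voom called 0 higher and 1 lower, *Cfd* (adipsin, log2 fold change -3.99, adjusted p = 0.0223), while DESeq2 and the replicate block each called 5 lower. *Lipe*, the hormone-sensitive lipase, and *Retn*, which encodes resistin, were lower in every H3atKO sample as well (log2 fold changes of -3.04 and -1.57, limma voom, adjusted p = 0.0524 and 0.0629). Among the other lists, the sum of 6 brown adipocyte markers was 33.3 to 71.1 cpm in floxed and 321 to 1134 cpm in H3atKO samples, with *Cox7a1* the lowest of them in H3atKO replicate 3 at 10 reads. *Elovl3* made up most of the H3atKO sums, at 721, 283 and 172 cpm, and was at 4.21, 0.216 and 0.971 cpm in floxed samples. Limma voom called *Elovl3* and *Dio2* higher (adjusted p = 0.0106 and 0.0336) and 0 of the 6 lower. *Ucp1* overlapped between the groups (limma voom, adjusted p = 0.353), and *Cox7a1* had the 1 negative log2 fold change of the 6 (-0.28). The sums of 6 endothelial markers (563 to 965 against 402 to 544 cpm) and of 5 Schwann cell markers (197 to 316 against 109 to 151 cpm) were lower in every H3atKO sample than in any floxed sample. No marker of these 3 lists was at 0 in any sample. The part of fat cells, and of these other cell types, in the results below was not tested.

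None of the 10 genes was called in limma voom at an adjusted p under 0.05, in either direction. By comparison, 9.42% of all genes tested were called higher and 7.07% lower in H3atKO. Without adjustment, 4 of the 10 had a p under 0.05, all lower in H3atKO, where 23.4% of all genes were lower and 20.4% higher at that p. EdgeR called 3 of the 10 lower, beside 18.4% of all genes lower and 12.8% higher. DESeq2 called 5 lower, beside 23.2% lower and 19.7% higher of the 14922 genes it gave an adjusted p, and neither tool called any of the 10 higher. The fold changes leaned downward, with 9 negative and 1 positive, and a median log2 fold change of -1.20 beside -0.09 over all genes tested.

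The groups did not overlap for 4 of the 10 genes, *Slc2a4*, *Hk1*, *Pkm* and *Ldhb*, and all 4 were lower in H3atKO. Among all genes tested, every H3atKO sample lay below every floxed sample for 28.6% and above for 23.2%. With the replicate block, *Slc2a4*, *Hk1*, *Pfkl*, *Pkm* and *Ldhb* were called lower and no gene higher, 5 of 10 where the same fit called 28.7% of all genes lower and 24.8% higher. With the GC correction, none of the 10 was called, where 3.10% of all genes were called lower and 5.59% higher, and their median log2 fold change was 0.07, of the opposite sign.

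**Figure D1:**
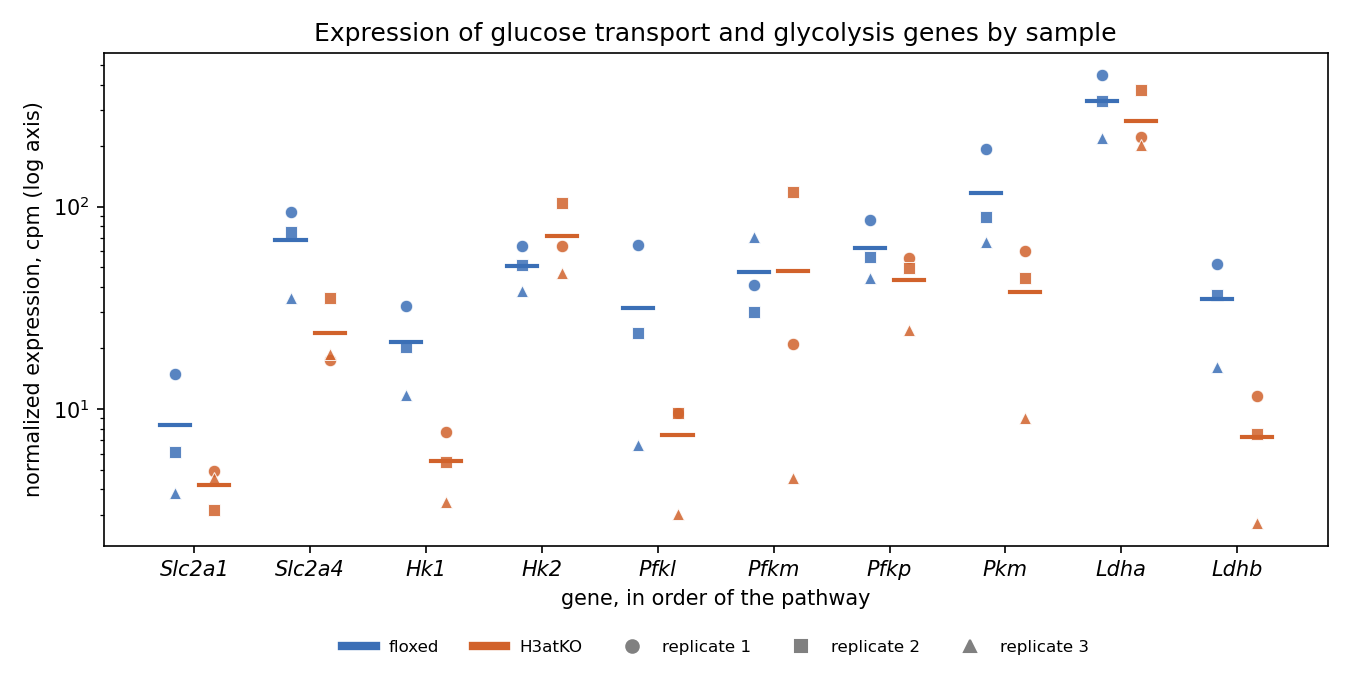
Normalized expression in cpm (log axis) of the 10 genes, in pathway order, in 3 floxed (blue) and 3 H3atKO (orange) samples, with each point a sample, its shape the replicate number and each bar the group mean. The orange points lie below all blue points for Slc2a4, Hk1, Pkm and Ldhb, and the groups overlap for the other 6 genes.

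The order of samples within a genotype was much the same from gene to gene. Of the 3 floxed samples, replicate 1 was the highest for 9 of the 10 genes and replicate 3 the lowest for 9. Of the 3 H3atKO samples, replicate 3 was the lowest for 8 of the 10. The correlation with GC content was likewise highest in floxed replicate 1 and lowest, within each genotype, in replicate 3. Comparing samples by number, 6 genes were lower in H3atKO in 3 of 3 pairs, namely *Slc2a4*, *Hk1*, *Pfkl*, *Pfkp*, *Pkm* and *Ldhb*. Shares of all genes with these orders were not computed. At least 28.6% of all genes tested were lower in 3 of 3 pairs, since every H3atKO sample lay below every floxed sample for that share.

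Of the transporters, *Slc2a4* encodes the insulin-responsive carrier GLUT4 (chr11:69942539-69948188, minus strand, GRCm38). It was at 93.9, 75.1 and 35.5 cpm in floxed and 17.4, 35.4 and 18.6 cpm in H3atKO samples. The lowest floxed and the highest H3atKO sample nearly touched. The level was 2.80-fold lower in H3atKO (log2 fold change -1.49, SE 0.47), which did not pass the test (limma voom, adjusted p = 0.0620), and passed it with the replicate block (adjusted p = 0.0131). The GC correction left a log2 fold change of -0.30 (SE 0.32).

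*Slc2a1* encodes GLUT1, the carrier of basal glucose uptake in most cells (chr4:119108711-119137983, plus strand). It was the lowest of the 10 genes by mean cpm, at 14.9, 6.10 and 3.84 cpm in floxed and 4.94, 3.16 and 4.55 cpm in H3atKO samples. Floxed replicate 1 stood above the other 5 samples, and the remaining ones overlapped. The log2 fold change was -0.78 (SE 0.60, limma voom, adjusted p = 0.335), and 0.30 after the GC correction. Per kilobase of exon, *Slc2a4* made up 89.7% ± 3.11 (SD, n = 3) of the counts of the transporter pair in floxed and 83.5% ± 7.39 in H3atKO samples.

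The hexokinases and the lactate dehydrogenases are the pairs of forms whose ratio, before the GC correction, did not overlap between the genotypes. The share of such ratios among pairs of all genes was not computed. The promoter sequences of these forms are shown first. They are the 250 bases before a transcription start in the RefSeq promoter table (GRCm38.p6), written 5′ to 3′ on the strand of the gene. Capitals mark the letters ACGTG on either strand, the core of the element bound by the hypoxia-inducible factor, whose alpha subunit gene *Hif1a* is described below. Where such a match lies within CACGTG, the palindromic E-box, it is read on both strands and counted as 1 site.
Hk1, chr10:62379909-62380158, minus strand: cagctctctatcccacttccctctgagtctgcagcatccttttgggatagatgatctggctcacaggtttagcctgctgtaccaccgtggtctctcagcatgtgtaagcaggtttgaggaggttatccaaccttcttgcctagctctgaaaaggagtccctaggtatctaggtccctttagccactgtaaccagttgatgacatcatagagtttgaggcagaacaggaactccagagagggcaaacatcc
Hk2, chr6:82774455-82774704, minus strand: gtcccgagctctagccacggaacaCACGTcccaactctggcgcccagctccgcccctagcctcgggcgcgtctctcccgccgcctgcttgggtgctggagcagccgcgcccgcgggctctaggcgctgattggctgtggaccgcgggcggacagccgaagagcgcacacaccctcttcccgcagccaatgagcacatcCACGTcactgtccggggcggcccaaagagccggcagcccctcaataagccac
Ldha, start nearest the principal transcript, chr7:46846832-46847081, plus strand: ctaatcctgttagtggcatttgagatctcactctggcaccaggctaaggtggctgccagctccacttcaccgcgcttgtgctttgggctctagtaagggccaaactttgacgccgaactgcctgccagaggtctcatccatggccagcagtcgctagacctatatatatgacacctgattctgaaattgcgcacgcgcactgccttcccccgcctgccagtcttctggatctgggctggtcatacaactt
Ldha, other start, chr7:46845554-46845803, plus strand: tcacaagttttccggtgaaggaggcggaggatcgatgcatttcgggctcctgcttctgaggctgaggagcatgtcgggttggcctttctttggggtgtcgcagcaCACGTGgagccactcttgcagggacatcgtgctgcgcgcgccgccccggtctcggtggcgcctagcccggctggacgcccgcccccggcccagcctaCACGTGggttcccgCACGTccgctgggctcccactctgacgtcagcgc
Ldhb, chr6:142507958-142508207, minus strand: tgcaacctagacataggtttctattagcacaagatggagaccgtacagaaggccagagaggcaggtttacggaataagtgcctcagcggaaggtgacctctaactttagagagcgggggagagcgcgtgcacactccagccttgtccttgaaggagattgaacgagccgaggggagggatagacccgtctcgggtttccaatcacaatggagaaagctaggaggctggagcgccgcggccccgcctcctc

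In the windows shown, *Hk1* and *Ldhb* held no match and *Hk2* held 2. The other start listed for *Hk1*, 39487 bases from the principal start, is not shown and held no match. Its window has a GC content of 62.8%, against 49.6% for the window shown. For *Ldha* the answer depended on the start, with 0 matches at the start nearest its principal transcript and 3, of which 2 were CACGTG, at the other, 1327 bases from the principal start. Of the 9 genes with a promoter in the table, 3 (*Slc2a1*, *Hk2* and *Pfkm*) held ACGTG at the start nearest the principal transcript of the APPRIS annotation. An earlier choice of the start nearest the outer end of the gene gave 4 of 9, with *Ldha* added. Among all 32851 promoters listed there, 16.6% held ACGTG and 6.02% held CACGTG. Motif and starts were both chosen after the expression values had been seen, and a match describes letters only. Of all 15 windows of the 9 genes, 6 held ACGTG, and *Slc2a4* had none in the table.

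*Hk1* encodes the hexokinase that most tissues express throughout (chr10:62268855-62379908, minus strand). It was at 32.2, 20.2 and 11.8 cpm in floxed and 7.69, 5.45 and 3.47 cpm in H3atKO samples. Every H3atKO sample was below every floxed sample, and each was lower than the floxed sample of its number by a similar factor (log2 differences of -2.06, -1.89 and -1.76). The gene overlaps the antisense gene *Hk1os* in the annotation, and whether the counting used strand is not given in the sources used here. The level was 3.68-fold lower in H3atKO (log2 fold change -1.88, SE 0.54), just short of the threshold in limma voom (adjusted p = 0.0512) and past it with the replicate block (adjusted p = 0.00304). The GC correction left -0.28 (SE 0.21, adjusted p = 0.393).

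*Hk2*, the insulin-inducible hexokinase of fat and muscle (chr6:82725025-82774454, minus strand), was the 1 gene of the 10 with a positive fold change. Its level was 63.5, 51.6 and 38.1 cpm in floxed and 63.9, 104 and 47.0 cpm in H3atKO samples. Each H3atKO sample was above the floxed sample of its number, in replicate 1 by under 1 cpm, but the groups overlapped. The log2 fold change was 0.45 (SE 0.35, limma voom, adjusted p = 0.342), and -0.41 when libraries were scaled by their sizes alone, a scaling that moved the median of all genes by -0.85. It was 1.07 (SE 0.26) after the GC correction (adjusted p = 0.0510) and was called higher when the block was added to that correction (adjusted p = 0.0292).

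The hexokinase pair was compared within each sample as counts per kilobase of exon, which needs no scaling between libraries. *Hk1* made up 26.2%, 21.4% and 17.8% of the pair in the 3 floxed and 7.76%, 3.54% and 4.92% in the 3 H3atKO samples. The groups did not overlap, and the mean share was 21.8% ± 4.21 (SD, n = 3) in floxed and 5.41% ± 2.15 in H3atKO samples. The log2 ratio of *Hk1* to *Hk2* was 2.34 lower in H3atKO, written as a difference of -2.34 (SE 0.40), with p = 0.1 in a two-sided exact permutation test, the smallest p that 3 against 3 can give, and 0.3 when adjusted over the 6 ratios compared. With GC-corrected values the difference was -1.35 and the groups again did not overlap (exact permutation p = 0.1). The summed level of the pair was 72.5 ± 22.9 cpm in floxed and 77.2 ± 29.9 cpm in H3atKO samples.

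With the length of the principal transcript in place of all exons, a choice made after the data had been seen, the mean share of *Hk1* was 36.2% in floxed and 10.4% in H3atKO samples. The difference in log2 ratio is the same under either length.

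**Figure D2:**
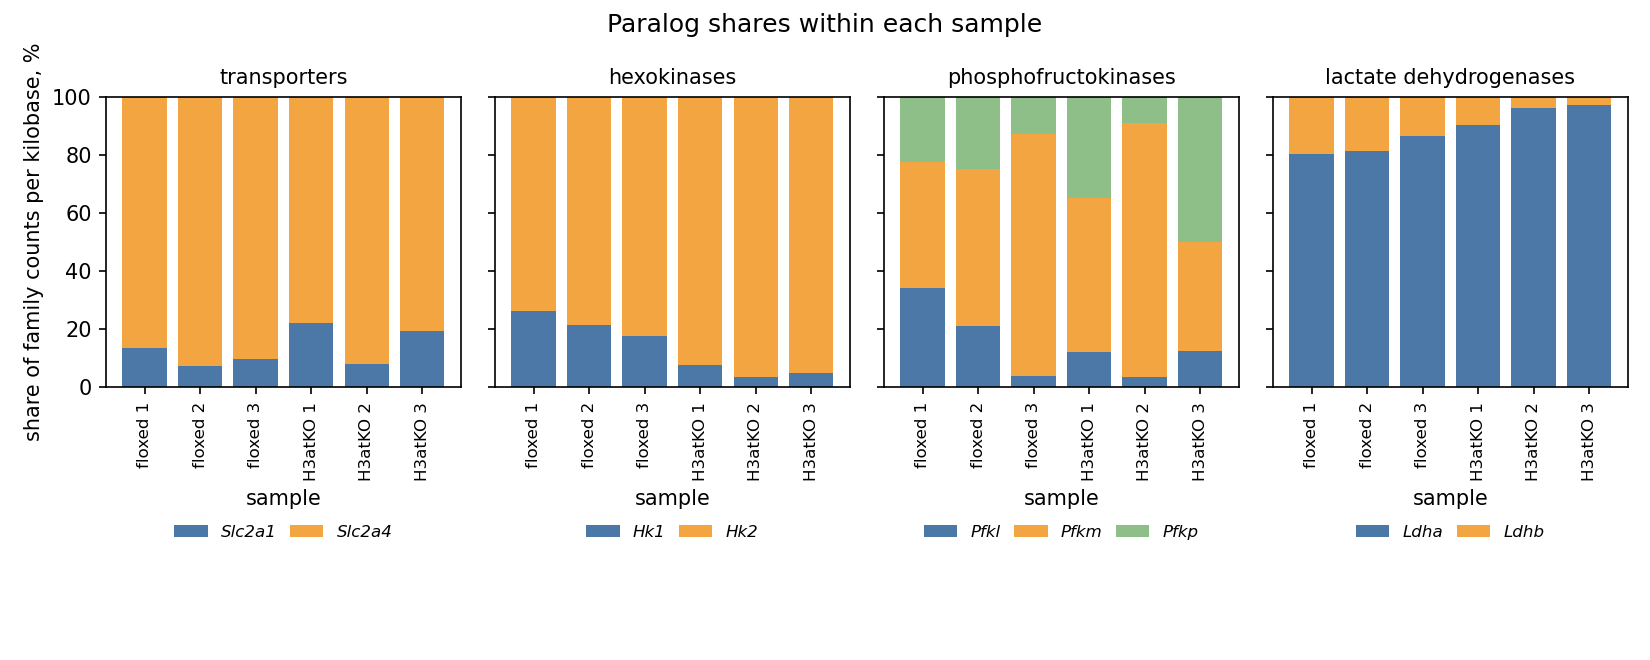
Share of each family's counts per kilobase of exon (percent, from 0 to 100) held by each gene in the 6 samples, in 1 panel for each family. Hk1 holds 17.8% to 26.2% of the hexokinase pair in floxed and 3.54% to 7.76% in H3atKO samples, Ldhb holds 13.5% to 19.8% of its pair in floxed and 2.75% to 9.96% in H3atKO samples, and the phosphofructokinases vary widely within each genotype.

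Among the phosphofructokinases, which catalyse the committed step, no form differed beyond the spread in limma voom. *Pfkl*, the liver form (chr10:77986947-78010083, minus strand), was at 64.5, 23.6 and 6.60 cpm in floxed and 9.59, 9.58 and 3.03 cpm in H3atKO samples. Floxed replicate 3 lay among the H3atKO samples, while floxed replicate 1 was far above them. The log2 fold change was -1.69 (SE 1.01, adjusted p = 0.221), -1.93 with the replicate block (adjusted p = 0.00936) and 0.05 after the GC correction. Of the 10 genes it has one of the highest GC contents, 57.1%.

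*Pfkp*, the platelet form (chr13:6579768-6648777, minus strand), has the lowest GC content of the 10 at 48.0%. It was at 86.1, 56.1 and 44.5 cpm in floxed and 55.6, 49.7 and 24.5 cpm in H3atKO samples, with the groups overlapping. Its log2 fold change was -0.52 (SE 0.39, limma voom, adjusted p = 0.321) and stayed near that value after the GC correction, at -0.64 (SE 0.40).

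*Pfkm*, the muscle form (chr15:98092589-98132451, plus strand), varied most within H3atKO. It was at 40.9, 30.2 and 70.6 cpm in floxed and 20.9, 118 and 4.55 cpm in H3atKO samples. The highest and the lowest of the 6 samples were both H3atKO. The log2 fold change of -0.91 (SE 0.95, limma voom, adjusted p = 0.473) was 0.02 with edgeR, 0.09 with DESeq2 and 0.30 after the GC correction.

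The 6 samples had the same order for *Pfkm* as for the summed level of 11 skeletal muscle markers, all of them measured. That sum was 1286, 784 and 3444 cpm in floxed and 569, 5201 and 17.3 cpm in H3atKO samples. The single markers differed in order, and of the 11 only *Tnnc2* and *Tnnt3* had that of the sum. *Acta1*, *Ckm* and *Myh1* were highest in floxed replicate 1, at 348, 78.8 and 283 cpm. For *Myh4* and *Ttn*, H3atKO replicate 1 (264 and 153 cpm) lay above floxed replicates 1 and 2. No marker was at 0 in any sample, but H3atKO replicate 3 had 1 to 16 reads on every one of them except *Ttn*, with 227. *Eno3* and *Pygm*, the muscle forms of enolase and of glycogen phosphorylase, had the order of *Pfkm* as well, and none of the other 9 genes did. *Pgam2*, the muscle form of phosphoglycerate mutase, did not have it. It was at 6.71, 2.86 and 4.20 cpm in floxed and 0.329, 5.10 and 0 cpm in H3atKO samples. The part of muscle in the *Pfkm* values was not tested beyond this order.

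**Figure D3:**
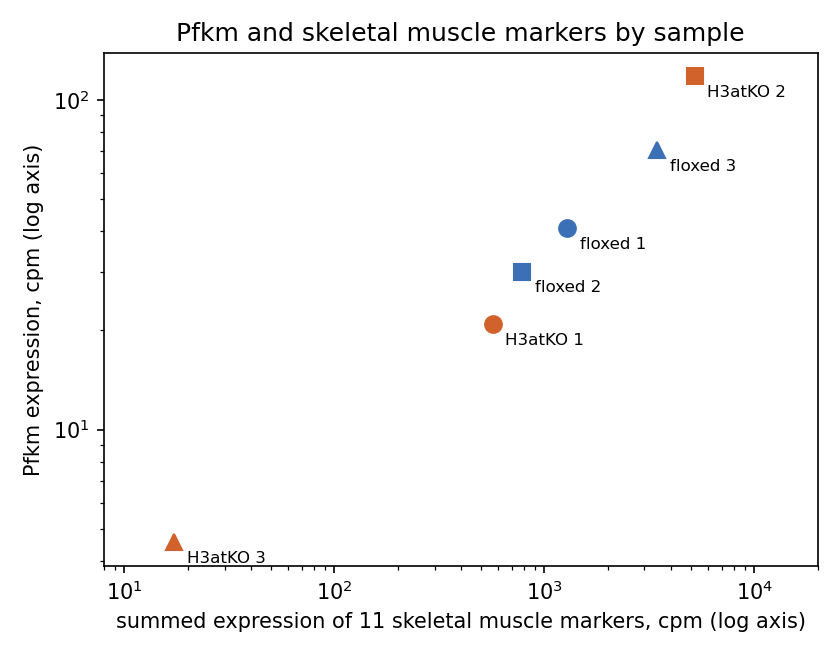
Expression of Pfkm against the summed expression of 11 skeletal muscle markers, both in cpm on log axes, with 1 point for each of the 6 samples, floxed in blue and H3atKO in orange. Both measures are lowest in H3atKO replicate 3 (4.55 and 17.3 cpm) and highest in H3atKO replicate 2 (118 and 5201 cpm), with the floxed samples between.

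Within the family, *Pfkm* held 43.2%, 53.9% and 83.1% of the counts per kilobase in floxed and 52.8%, 87.3% and 37.4% in H3atKO samples. The differences in log2 ratio between genotypes were -0.74 for *Pfkl* to *Pfkm* (exact permutation p = 0.5), 0.43 for *Pfkp* to *Pfkm* (exact permutation p = 0.8) and 1.17 for *Pfkp* to *Pfkl* (exact permutation p = 0.3). Values within a group spread as widely as the groups differed. The last of these was of the opposite sign with GC-corrected values, at -0.71, where the groups did not overlap (exact permutation p = 0.1), and *Pfkp* to *Pfkm* also changed sign, to -0.92. *Pfkl* to *Pfkm* was at -0.21 after the correction.

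*Pkm*, which encodes the pyruvate kinase of fat, muscle and most other tissues (chr9:59656368-59679375, plus strand), was at 193, 88.4 and 66.5 cpm in floxed and 60.2, 44.5 and 9.03 cpm in H3atKO samples. Every H3atKO sample was below every floxed sample, by a narrow margin apart from H3atKO replicate 3, without which the log2 fold change was -0.999. The level was 3.38-fold lower in H3atKO (log2 fold change -1.76, SE 0.70, limma voom, adjusted p = 0.0983) and was called with the replicate block (adjusted p = 0.0101). It has the highest GC content of the 10, 57.7%, and a log2 fold change of 0.09 (SE 0.43) after the GC correction. Its count is uncertain in another way, since 34.4% of the 50-base windows of its transcript also occur in 8 other genes, 7 of them pseudogenes, and reads with more than 1 place, a larger share in every H3atKO than in any floxed sample, were given to no gene. The files count reads by gene, so the M1 and M2 splice forms of *Pkm* were not separated.

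Of the lactate dehydrogenases, *Ldha* encodes the subunit that dominates in glycolytic tissue (chr7:46841475-46855627, plus strand). It was the highest of the 10 genes by mean cpm, and also per kilobase of exon, at 100.1 ± 34.4 (SD, n = 3) cpm per kilobase in floxed samples. Its level was 445, 332 and 217 cpm in floxed and 220, 376 and 202 cpm in H3atKO samples, and the groups overlapped over most of their range. The log2 fold change was -0.31 (SE 0.36, limma voom, adjusted p = 0.514), and 0.22 after the GC correction.

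*Ldhb* encodes the subunit of oxidative tissue such as heart (chr6:142490249-142507957, minus strand). It was at 52.0, 36.7 and 16.02 cpm in floxed and 11.5, 7.49 and 2.72 cpm in H3atKO samples. Every H3atKO sample was below every floxed sample, and each H3atKO sample was lower than its floxed number by a log2 difference of -2.17, -2.29 and -2.56. At 4.88-fold lower in H3atKO it had the largest change of the 10 (log2 fold change -2.29, SE 0.68), short of the threshold in limma voom (adjusted p = 0.0546) and past it with the replicate block (adjusted p = 0.00288). With the GC correction its log2 fold change was -1.43 (SE 0.47, adjusted p = 0.0998), and the block added to that correction called it lower (adjusted p = 0.0149). Of its 50-base windows, 27.0% also occur in a pseudogene, as do 16.7% of those of *Ldha* in 14 pseudogenes.

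The ratio within the pair moved with *Ldhb*. There were 4.06, 4.29 and 6.43 counts per kilobase of *Ldha* for each of *Ldhb* in the 3 floxed samples, against 9.04, 23.8 and 35.3 in the 3 H3atKO samples. The groups did not overlap, and the difference in log2 ratio was 2.03 (SE 0.62), with p = 0.1 in the two-sided exact permutation test and 0.3 when adjusted over the 6 ratios. With GC-corrected values it was 1.69 (exact permutation p = 0.1). The share of *Ldhb* in the pair was 17.4% ± 3.42 (SD, n = 3) in floxed and 5.58% ± 3.84 in H3atKO samples, and the summed level was 366 ± 132 against 273 ± 96.1 cpm.

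**Figure D4:**
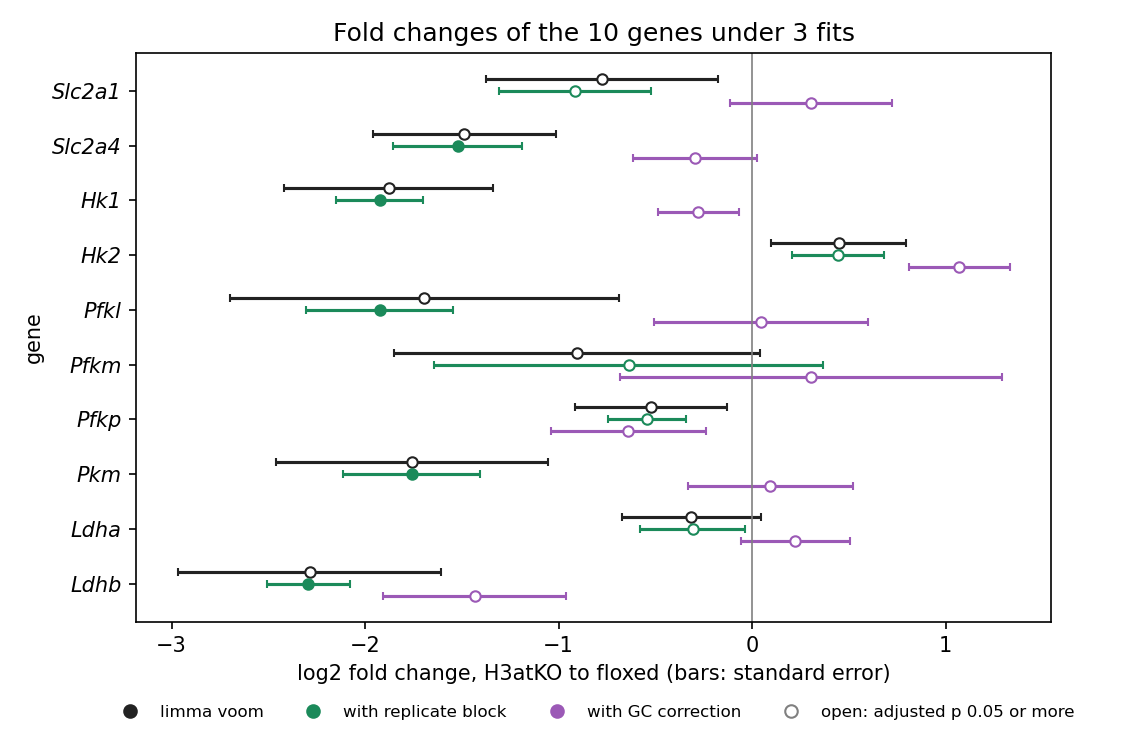
Log2 fold change of each of the 10 genes from floxed to H3atKO, with its standard error, in limma voom (black), with the replicate block (green) and with the GC correction (purple). Filled points have an adjusted p under 0.05, which Slc2a4, Hk1, Pfkl, Pkm and Ldhb have with the block and no gene has in the other 2 fits, and the purple points lie near 0 for Hk1, Pfkl and Pkm but at -1.43 for Ldhb and 1.07 for Hk2.

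The rest of the pathway was read from a list of 16 further genes of glucose transport and glycolysis, of which 12 were tested. Their median log2 fold change was -1.44 in limma voom, with 2 positive and 10 negative, and -0.95 with edgeR. After the GC correction it was -0.33, with 5 positive and 7 negative, and with the block added to that correction 0.09, with 7 positive and 5 negative. Limma voom called 0 of them higher and 1 lower, while without adjustment 0 and 3 had a p under 0.05, and edgeR and DESeq2 each called 0 higher and 3 lower. *Hk3*, a hexokinase of myeloid cells, was lower in every H3atKO sample, at 3.90, 2.28 and 3.11 against 0.700, 0.510 and 0.253 cpm. It was under 1 cpm in every H3atKO sample and so passed the low-count filter through the floxed samples alone. Its call is therefore not independent of that filter. Its log2 fold change was -2.62 (SE 0.61, limma voom, adjusted p = 0.0353), and -0.94 after the GC correction, when it no longer passed the test (adjusted p = 0.324). The summed level of 6 macrophage markers ran from 412 to 2217 cpm in floxed and from 354 to 636 cpm in H3atKO samples, with overlap. Of the 6, 5 had a negative and 1 a positive fold change in limma voom. It called 0 higher and 1 lower, *Csf1r* (log2 fold change -2.35, adjusted p = 0.0219), which was lower in every H3atKO sample. After the GC correction *Csf1r* was at -1.19 (adjusted p = 0.201). The part of macrophages in the *Hk3* values was not tested.

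None of the other 11 passed the test. *Gpi1*, which converts glucose 6-phosphate to fructose 6-phosphate, had a log2 fold change of -1.74 (limma voom, adjusted p = 0.0617, and 0.00334 with the replicate block), with every H3atKO sample below every floxed sample, and -1.07 after the GC correction. *Aldoa* (aldolase) was at -1.49, *Tpi1* (triosephosphate isomerase) at -0.66 and *Gapdh* at -0.54, and the GC correction turned the sign of these 3, to 0.23, 0.29 and 0.23. The enolases *Eno1*, *Eno2* and *Eno3* were at -2.64, -1.39 and -1.70, and *Pgam2*, the muscle phosphoglycerate mutase, at -3.37 with no read in H3atKO replicate 3. After the correction these 4 were at -0.82, -0.15, -0.53 and -1.68. *Slc2a3* (GLUT3) was at -0.31 before and -0.51 after it. *Pgk1* and *Pgam1* were positive, at 0.77 and 0.72, and *Pgk1* was at 0.93 after the correction. *Pgam1* was called higher after the GC correction (1.53, adjusted p = 0.0352). The replicate block called 4 of the 12 lower, *Hk3*, *Gpi1*, *Aldoa* and *Eno1*, and 0 higher. *Hkdc1*, *Aldoc*, *Pklr* and *Ldhc* did not reach 1 cpm in any sample and were not tested.

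Several of these housekeeping genes have processed copies in the genome. Of the 50-base windows of *Eno1*, *Pgk1*, *Pgam1* and *Gapdh*, 72.2%, 68.0%, 41.5% and 27.8% occur in other genes, and *Gapdh* shares them with 208 pseudogenes. Their counts are uncertain for that reason, and *Gapdh*, usually abundant, was at 3.30 cpm in floxed samples.

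**Figure D5:**
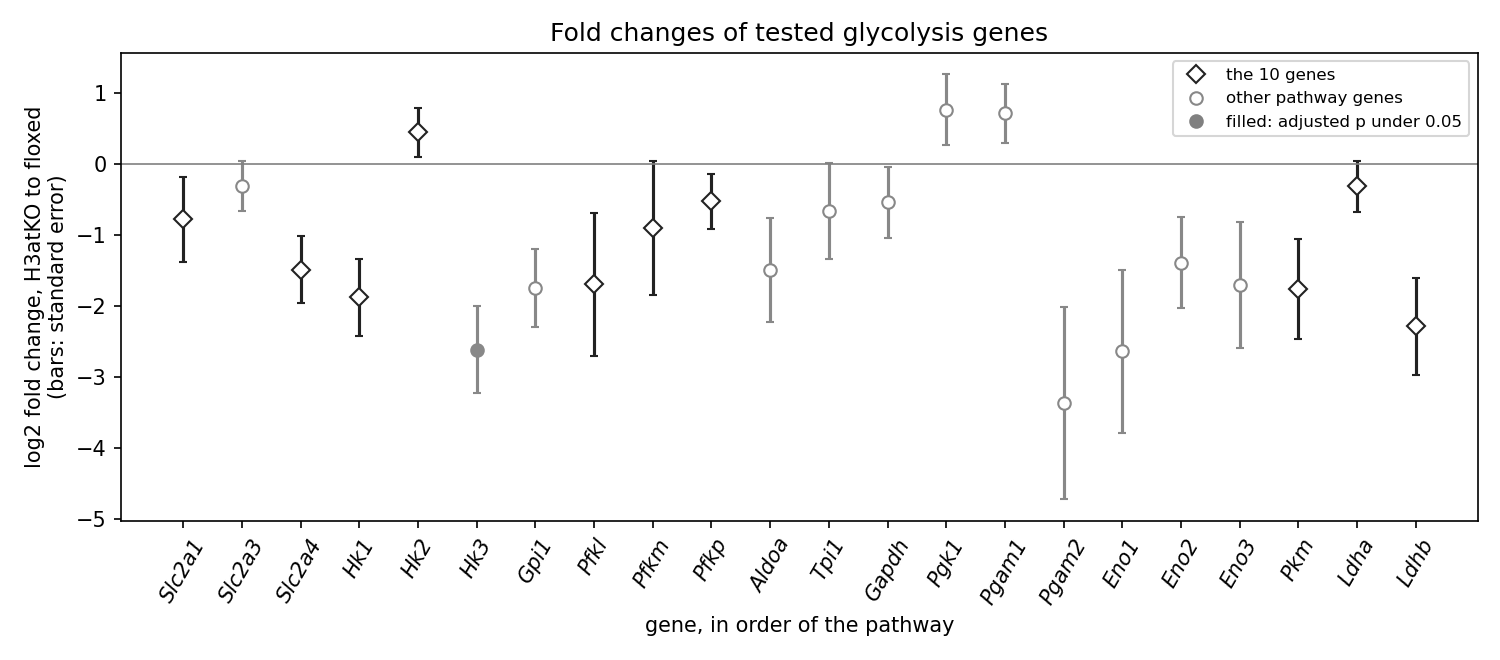
Log2 fold change from floxed to H3atKO, with its standard error, of the 10 genes (black diamonds) and 12 further tested genes of the pathway (grey circles) in the order of the steps. Filled points mark an adjusted p under 0.05 in limma voom, which Hk3 (-2.62) has, and most of the open points are below 0. Hk3 passed the low-count filter through the floxed samples alone.

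Genes that set the flow through phosphofructokinase were not called in limma voom (0 of 5 tested). *Pfkfb3*, which makes the activator fructose 2,6-bisphosphate and was the most abundant of them, was at 682, 635 and 642 cpm in floxed and 861, 1779 and 1154 cpm in H3atKO samples. Every H3atKO sample was above every floxed sample (log2 fold change 0.89, SE 0.30, adjusted p = 0.0709, and 0.0367 with the replicate block). *Pfkfb4*, another gene of the same enzyme family, went the other way, with every H3atKO sample below every floxed sample (log2 fold change -1.50, limma voom, adjusted p = 0.0821, and 0.0372 with the block). After the GC correction *Pfkfb3* was at 1.16 and *Pfkfb4* at -0.26, and neither was called.

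Of 5 genes of lactate export, limma voom called 1 higher and 0 lower, and the replicate block 2 higher and 1 lower. *Slc16a1*, which encodes the monocarboxylate transporter MCT1, was at 84.8, 58.5 and 40.8 cpm in floxed and 256, 194 and 121 cpm in H3atKO samples. All H3atKO samples were above all floxed samples (log2 fold change 1.63, SE 0.38, limma voom, adjusted p = 0.0350). After the GC correction it was at 0.84 (adjusted p = 0.314), and *Slc16a7*, which encodes MCT2, was called lower (-2.43, adjusted p = 0.0151) and *Bsg*, a chaperone of MCT1, higher (1.48, adjusted p = 0.0250).

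Of 8 genes that handle GLUT4 vesicles, limma voom called 3 higher and 1 lower. EdgeR, DESeq2 and the replicate block each called 3 higher and 3 lower, and the GC correction 1 higher and 0 lower. *Rab10*, the GTPase that carries the vesicles to the membrane, rose with a log2 fold change of 1.52 (limma voom, adjusted p = 0.0227), and also after the GC correction (0.92, adjusted p = 0.0335). *Lnpep*, the aminopeptidase that travels in the same vesicles, rose by 1.36, and *Tbc1d4*, which holds the vesicles back until insulin acts, by 1.08. *Stx4a*, the syntaxin at the membrane, fell by 2.14 on the log2 scale. *Aspscr1*, which encodes the tether TUG that holds the vesicles inside the cell, and *Vamp2*, their fusion protein, were called lower with the block (adjusted p = 0.00465 and 0.0148) but not without it (log2 fold changes of -1.95 and -0.88, limma voom, adjusted p = 0.0740 and 0.0501), and were at -1.74 and 0.02 after the GC correction. Neither *Lnpep*, *Tbc1d4* nor *Stx4a* passed the test after the GC correction (adjusted p = 0.222, 0.0516 and 0.0574).

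Of 9 transcriptional regulators and glucose-responsive genes, 2 were called higher and 2 lower in limma voom, and 2 and 4 with the replicate block. *Mlxipl*, which encodes the glucose-sensing factor ChREBP, had a log2 fold change of -2.16 (limma voom, adjusted p = 0.0343), and -0.53 after the GC correction (adjusted p = 0.171). *Txnip*, a ChREBP target that restrains glucose uptake, fell in both fits, by 1.17 and by 1.24 on the log2 scale (adjusted p = 0.0367 and 0.0330), and was at 2832, 3418 and 1973 cpm in floxed and 1082, 1324 and 1180 cpm in H3atKO samples. *Hif1a* was at 64.1, 83.6 and 116 cpm in floxed and 184, 202 and 242 cpm in H3atKO samples (log2 fold change 1.28, limma voom, adjusted p = 0.0324), and at 0.34 after the GC correction (adjusted p = 0.177). *Mef2a*, a factor that acts on the *Slc2a4* promoter, was called higher as well, with a log2 fold change of 1.14 (limma voom, adjusted p = 0.0421), and was at 0.26 after the GC correction.

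Neighbouring routes for glucose 6-phosphate were read from 8 genes of the pentose phosphate pathway and 10 of glycogen metabolism. Of the former, *Rpe* was called higher (log2 fold change 1.70, limma voom, adjusted p = 0.0255) and none lower, and the median log2 fold change was -0.80. EdgeR and DESeq2 each called 1 higher and 3 lower. The replicate block called *Rpe* and *Pgd* higher and *H6pd*, *Pgls*, *Tkt* and *Taldo1* lower. With the GC correction none of the 8 was called and the median was 0.09. Of the latter, 3 were called higher, *Ugp2* (1.98), *Gbe1* (1.55) and *Gyg* (1.44), which make UDP-glucose, the branches and the primer of glycogen, and *Pygb*, a glycogen phosphorylase, was called lower (-1.40). After the GC correction *Gyg* was the 1 called gene of the 18 (1.43, adjusted p = 0.0413).

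The genes whose log2 cpm followed *Slc2a4* most closely over the 6 samples, of 6283 protein-coding candidates, were *Fgfrl1* (Pearson r = 0.998), *Shc1* (r = 0.997) and *Tmem120b* (r = 0.994). Those most like *Pkm* were *Emd* (r = 0.999), *Ctsz* (r = 0.993) and *2810004N23Rik* (r = 0.992). These are descriptions over 6 libraries that share depth, GC trend and genotype, and no p is given for them.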

How the data were processed

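RNA-seq counts from IngWAT of 3 floxed and 3 H3atKO pools were analysed, grouped by the labels. The authors selected poly(A) RNA for stranded libraries, trimmed reads with cutadapt 1.3, aligned them to GRCm38 with STAR 2.4.2a and counted them on genes with HTSeq 0.6.1 (versions from the paper and the submitters' processing notes). The strand setting of the counting is not given in the sources used here. The deposited files hold raw counts per gene, not normalized, followed by 5 lines of reads given to no gene, which held 37.3% to 51.7% of the tallied alignments and were left out. Symbols, positions, exon lengths and GC content came from GENCODE M21 (GRCm38), in which 46005 of 46517 identifiers matched.

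Genes reaching 1 cpm in 1 or more samples entered the test, scaled by TMM (edgeR 4.0.16) and compared by limma 3.58.1 (voom, empirical Bayes) in R 4.3.3, with Benjamini-Hochberg adjustment over all 14967 genes and a threshold of 0.05. Ratios between forms were compared by two-sided exact permutation tests. Alternatives were edgeR's quasi-likelihood test, DESeq2 1.42.0, other scalings and filters, sample quality weights, a replicate block, a GC correction (robust loess, span 0.3), and each sample left out. Scripts were tested on simulated data. Windows of 50 bases of the longest transcript of a gene, which need not be its principal one, were matched to all transcripts of other genes to find shared sequence.

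Same-numbered samples deviated together from their group means (correlations 0.51, 0.39 and 0.26, against a mean of -0.20 between different numbers), so the numbers were taken to pair the samples. This comes from the data, since the labels do not say what a number marks. The labels name no separate batches, and p-values measure the spread between pools.

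Named genes are the 10 genes, the further glycolysis list, the called genes of each other list (at most 3 a direction) or else its most abundant gene, and the 3 genes most like *Slc2a4* and *Pkm*. *Slc16a7*, *Bsg*, *Pfkfb4*, *Aspscr1*, *Vamp2*, *Pgd*, *H6pd*, *Pgls*, *Tkt*, *Taldo1* and the markers *Cfd*, *Lipe*, *Retn*, *Fabp4*, *Elovl3*, *Dio2*, *Ucp1* and *Csf1r* were added after their values were seen. Some genes are not reported here. The members, lists and alternatives were chosen with earlier results of these data known. At these depths 3 counts correspond to 0.0852 to 0.126 cpm before TMM normalization. After it they correspond to 0.0658 cpm in floxed replicate 1 and 0.190 cpm in H3atKO replicate 3. These floors cover counting error only.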

Additional observations from a re-analysis of the deposited data

How the results depend on the processing

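The calls on these genes depend on the fit. Against 0 in limma voom, the number called lower was 3 with edgeR, 5 with DESeq2, 3 with sample quality weights, 6 with library sizes alone, 1 with RLE factors, 3 where every sample had 10 counts or more, 5 with the replicate block and 1 where the GC correction was added to it. The number called higher was 1 with the block and the GC correction and 0 otherwise. Leaving out each sample gave 0 to 4 called lower (4 without floxed replicate 3) and 0 called higher. The median log2 fold change of the 10 genes was -2.04 under library sizes alone, 0.070 under the GC correction, 0.038 with the block added to it, and -1.91 to -0.92 with a sample left out. Over all genes, 1410 were called higher and 1058 lower in limma voom. The alternatives gave 1916 and 2749 with edgeR, 2935 and 3465 with DESeq2, 4003 and 4440 with sample quality weights, 306 and 5667 with library sizes alone, 1575 and 1864 where every sample had 10 counts or more, 3717 and 4290 with the replicate block, 837 and 464 with the GC correction, and 1957 and 1459 with both. With a sample left out these ran from 1 (without floxed replicate 2) to 2729 (without floxed replicate 3) higher and from 0 to 3828 lower, in the same order, and leaving out any 1 of the 6 samples moved both counts by over 1.5 times. The median of all genes moved by -0.85 with library sizes alone, by 0.21 with no filter and by 0.12 with the GC correction. The cause of these shifts was not tested.

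Signs also changed for single genes. With the GC correction, and in the second value with the block added, the log2 fold change was 0.30 and 0.20 for *Slc2a1*, 0.30 and 0.61 for *Pfkm*, 0.095 and 0.16 for *Pkm* and 0.22 and 0.23 for *Ldha*. It was 0.046 for *Pfkl* with the correction alone. With a sample left out, *Slc2a1* ran from -1.20 to -0.22 (the latter without floxed replicate 1), *Pfkl* from -2.53 (without floxed replicate 3) to -0.89 (without floxed replicate 1), *Pkm* from -2.35 to -0.999 (without H3atKO replicate 3), *Hk2* from 0.097 (without H3atKO replicate 2) to 0.70 (without H3atKO replicate 3), *Pfkp* from -0.78 to -0.18 (without H3atKO replicate 3) and *Ldha* from -0.64 (without H3atKO replicate 2) to -0.077 (without floxed replicate 1). *Hk2* was at -0.41 with library sizes alone, and *Pfkm* at 0.018 with edgeR, 0.095 with DESeq2, 0.085 with sample quality weights and between -2.14 and 0.12 with a sample left out, the last without H3atKO replicate 3. Among the ratios, the GC correction turned *Pfkp* to *Pfkm* to -0.92 and *Pfkp* to *Pfkl* to -0.71. With a sample left out, *Pfkl* to *Pfkm* ran from -1.93 to 0.19 and *Pfkp* to *Pfkm* from -0.35 to 1.49. *Hk1* to *Hk2* stayed between -2.66 and -2.06 and *Ldha* to *Ldhb* between 1.61 and 2.59. In the paired form of the ratio test, an exact sign-flip over 3 replicate pairs, the smallest possible p is 0.25, and both of these ratios had it. Of the 170 fold changes of the 10 genes under alternatives, 32 gained a call and 14 changed sign. None of the 10 was called in limma voom, so no call could be lost. Omitting the division by length or adding a pseudocount of 0.5 changed no ratio's direction. The GC correction also removes any effect of genotype that follows GC content. Depth limits *Hk3*, with as few as 4 reads in a sample.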
